A study of Homo sapiens with 24 samples.

Results

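Nucleotide and one-carbon synthesis is described here through 30 genes of enzymes that make purines, pyrimidines, deoxynucleotides and folate one-carbon units. The genes were chosen by symbol for their role in these pathways, with earlier results of these data known, and the rule itself uses no measured value. All 30 were found among the 59251 genes of the count table, and all 30 were among the 20820 genes whose counts sufficed for a test. The cells were MCF10A, a long-established breast epithelial line without tumour-forming growth. A derivative named PM is labelled as transformed by the oncogene MYC, and one named PE as non-transformed, with the letters not spelled out. Each line carried shCHD1 A or shCHD1 B, 2 hairpin RNAs against the chromatin remodeller CHD1, or the control hairpin shGFP against green fluorescent protein. This gave 6 groups of 4 libraries: PM shCHD1 A, PM shCHD1 B, PM shGFP, PE shCHD1 A, PE shCHD1 B and PE shGFP. Every culture, controls included, received doxycycline at 50 ng/ml for 72 h. The promoters that drive the hairpins and the MYC transgene, and whether a line is 1 clone, are not stated in the labels. Libraries are called biological replicates without further detail, and the p-values below cover only the spread among them, which may be technical. In RNA from whole cultures, fewer cells of a kind and less RNA per cell cannot be told apart.

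Cells make purine nucleotides stepwise on phosphoribosyl pyrophosphate (PRPP), an activated ribose that PRPS1 and PRPS2 produce. The enzyme PPAT commits PRPP to the purine pathway, and inosine monophosphate, the first complete purine, is then turned into adenine and guanine nucleotides. Pyrimidines are built as a free ring by CAD and DHODH and joined to PRPP by UMPS. Ribonucleotide reductase and the thymidylate enzymes supply deoxynucleotides, mainly in S phase, and folate enzymes in cytosol and mitochondria supply the carbon units. MYC is known as an activator of many of these genes, and E2F factors as activators of the S phase genes among them.

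Total counts per library ran from 4.14 to 93.3 M (median 49.5 M), and the smallest count of any of the 30 genes in any library was 58. Together the 30 genes took between 0.334% and 0.534% of a library's counts. Of the 36 pairs of libraries within a group, each differed by more than sampling noise (chi-square per degree of freedom from 5.89 to 49.2). The CHD1 transcript was lower by 1.54 and 1.61 on the log2 scale with hairpins A and B in PM, and by 1.42 and 1.48 in PE. Epithelial KRT5, KRT8 and KRT18 had at least 191 CPM (counts scaled to a common library size) in every library, whereas the basal factor TP63 was at or below 1.35 CPM and was at 0 in 5 libraries. Of 8 leukocyte markers, 5 stayed under 1 CPM in every library and PTPRC peaked at 1.11 CPM, but CD14 (10.4 to 34.3 CPM) and CD68 (14.4 to 65.5 CPM) were present in every library. Of 6 fibroblast markers, COL1A2 and PDGFRA were near 0, whereas COL1A1 (3.78 to 17.4 CPM) and DCN (1.21 to 55.1 CPM) were present in every library and LUM reached 10.1 CPM. Of 5 endothelial markers, CDH5, VWF and CLDN5 were near 0 and PECAM1 ran from 0.176 to 12.1 CPM. The leukocyte list summed to 37.6 to 43.9 CPM in PM shCHD1 A and 36.3 to 45.2 in PM shCHD1 B, against 51.9 to 55.2 in PM shGFP. In PE it came to 68.2 to 79.2 CPM in PE shCHD1 A and 57.1 to 85.8 in PE shCHD1 B, against 65.0 to 76.2 in PE shGFP. The fibroblast list summed to 12.9 to 18.5 CPM in PM shCHD1 A and 35.5 to 66.0 in PM shCHD1 B, against 18.3 to 41.4 in PM shGFP. In PE it came to 29.9 to 42.3 CPM in PE shCHD1 A and 24.2 to 40.9 in PE shCHD1 B, against 49.5 to 63.7 in PE shGFP. The endothelial list summed to 1.95 to 2.54 CPM in PM shCHD1 A and 1.252 to 2.99 in PM shCHD1 B, against 0.431 to 2.07 in PM shGFP. In PE it came to 10.5 to 13.3 CPM in PE shCHD1 A and 6.23 to 10.8 in PE shCHD1 B, against 6.96 to 8.67 in PE shGFP. The 12 epithelial markers summed to 2572 to 2863 CPM in PM shCHD1 A, 3259 to 3590.3 in PM shCHD1 B and 4598 to 5581 in PM shGFP. In PE they summed to 3701 to 5003, 2556 to 3176 and 5658 to 7993 CPM with shCHD1 A, shCHD1 B and shGFP, and the part of any of these marker lists in the results below was not tested. A set of 3 libraries stood apart: replicate 1 of PE shGFP with the lowest total, replicate 3 of PM shCHD1 B with the most genes found (33137), and replicate 4 of PM shCHD1 A with the highest mitochondrial share.

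The promoters printed here are those of PPAT, ATIC, DUT and PRPS2. They were picked from the genes whose windows hold letters that MYC or E2F factors are known to bind. Other genes with such letters are named after the sequences and not printed. Of the genes called under both hairpins in both lines, only DUT and PRPS2 hold such letters, and IMPDH2 had no window. RefSeq promoters on build GRCh38.p14 span 250 bases before and 50 bases after a start, and 27 of the 30 genes had one. PPAT and PAICS, which lie head to head on chromosome 4, have starts 137 bases apart, and their windows share 236 bases. Capitals mark the E-box CACGTG, a palindrome, in PPAT and ATIC, and the E2F letters TTTCCCGC or TTTGGCGC, or their reverse complement, in DUT and PRPS2. The windows, read 5′ to 3′ along the gene, are PPAT at chr4:56435566-56435865 on the minus strand, ATIC at chr2:215311809-215312108, DUT at chr15:48331947-48332246 and PRPS2 at chrX:12791162-12791461, the last 3 on the plus strand.
PPAT: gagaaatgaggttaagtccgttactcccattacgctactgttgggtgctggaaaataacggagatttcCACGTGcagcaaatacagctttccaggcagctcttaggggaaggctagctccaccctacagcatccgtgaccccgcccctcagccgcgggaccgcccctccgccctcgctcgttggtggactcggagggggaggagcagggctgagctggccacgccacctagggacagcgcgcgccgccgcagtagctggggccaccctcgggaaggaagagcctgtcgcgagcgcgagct
ATIC: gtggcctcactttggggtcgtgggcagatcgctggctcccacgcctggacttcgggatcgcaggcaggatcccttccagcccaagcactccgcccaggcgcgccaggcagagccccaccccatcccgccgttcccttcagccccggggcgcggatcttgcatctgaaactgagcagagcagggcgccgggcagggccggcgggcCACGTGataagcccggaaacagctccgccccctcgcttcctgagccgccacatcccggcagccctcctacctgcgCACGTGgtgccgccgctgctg
DUT: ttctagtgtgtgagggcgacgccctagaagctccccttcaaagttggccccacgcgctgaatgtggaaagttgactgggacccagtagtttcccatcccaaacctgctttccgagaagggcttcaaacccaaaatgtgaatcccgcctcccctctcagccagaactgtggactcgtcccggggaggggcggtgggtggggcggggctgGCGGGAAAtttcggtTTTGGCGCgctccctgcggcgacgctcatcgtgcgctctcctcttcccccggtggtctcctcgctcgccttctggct
PRPS2: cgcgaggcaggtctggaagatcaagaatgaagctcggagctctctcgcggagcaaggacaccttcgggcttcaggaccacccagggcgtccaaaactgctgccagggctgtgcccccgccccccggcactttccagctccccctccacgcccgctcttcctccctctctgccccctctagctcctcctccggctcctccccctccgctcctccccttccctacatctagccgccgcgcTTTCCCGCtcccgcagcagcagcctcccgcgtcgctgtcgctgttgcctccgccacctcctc

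The E-box of PPAT begins 182 bases before its start, and the same 6 bases, chr4:56435792-56435797, lie inside the transcribed end of PAICS. Over the 41 RefSeq windows of the 27 genes, 9 held a CACGTG (21.95%), against 7.26% of all 35116 windows. Counted by gene these were 7 of 27 (25.93%), against 8.77% of all genes: ATIC, PPAT, PAICS, MTHFD1L, MTHFD1, DHODH and NME1. The 9 windows hold 7 distinct sites, because windows of MTHFD1L overlap and PPAT and PAICS share theirs. The E2F letters TTTCCCGC, TTTGGCGC, TTTGCCGC and TTTCGCGC, on either strand, were found in 4 of 41 windows (9.76%), against 3.31% of all windows. By gene these were DUT, TYMS, GART and PRPS2, 4 of 27 (14.81%), against 3.99% of all genes. A match describes letters in this window and not binding.

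With the control hairpin, the MYC-transformed line had more RNA for 23 of the 30 genes. PM shGFP against PE shGFP gave 23 genes higher and none lower in edgeR's quasi-likelihood test at an adjusted p under 0.05 (19 to 23 higher without 1 library). Over all 20820 genes this comparison called 25.5% of genes (14.1% higher and 11.4% lower). All 30 log2 differences were above 0 in this fit and with the replicate number as a block. The number was 29 with library sizes alone, DESeq2, its size factors, limma-voom, other filters or the compared groups alone, and 28 without replicate 1 of PE shGFP. The median of the 30 log2 differences was 0.34 here, beside 0.02 over all genes. All 6 genes of the purine chain, all 5 pyrimidine genes, both PRPP synthetases and all 3 mitochondrial folate genes were among the 23. In contrast, 5 of the 6 deoxynucleotide genes were not called. MYC itself was higher by 0.91 (SE 0.06) on the log2 scale, and counts do not tell the cell's own MYC from a transgene.

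The largest difference between the lines was in PFAS, which makes formylglycinamidine ribonucleotide in the purine chain. PFAS had 152, 179, 151 and 147 CPM in PM shGFP, against 78.8, 106, 100.5 and 105 CPM in PE shGFP (log2 0.68, SE 0.09, adjusted p = 4.37e-07). DHODH, the mitochondrial dihydroorotate dehydrogenase, had 24.8, 30.6, 23.0 and 22.1 CPM in PM shGFP, against 12.9, 20.1, 14.4 and 17.6 CPM in PE shGFP (log2 0.60, SE 0.13, adjusted p = 8.55e-04). For both genes every PM library lay above every PE library, although PFAS replicate 1 of PE shGFP, the shallowest library, was the lowest. MTHFD1L, the mitochondrial formate-producing synthetase, had 153, 158, 147 and 138 CPM in PM shGFP, against 97.5, 98.0, 94.1 and 105 CPM in PE shGFP. Its groups were far apart (log2 0.59, SE 0.06, adjusted p = 2e-09). MTHFD2, the mitochondrial methylene-tetrahydrofolate dehydrogenase, was close behind at 0.57 (SE 0.08), as were IMPDH2 at 0.55 (SE 0.06) and PPAT at 0.53 (SE 0.09). PRPS2 followed at 0.51 (SE 0.09), and CAD and NME1, the nucleoside diphosphate kinase that makes triphosphates, both stood at 0.48. The other 14 called genes lay between 0.22 for HPRT1 and 0.43 for APRT.

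The 7 genes that were not called had the smallest differences, at most 0.16. Thymidylate synthase TYMS had 68.0, 60.4, 61.3 and 55.1 CPM in PM shGFP, against 57.2, 61.1, 60.7 and 61.2 CPM in PE shGFP, a log2 difference of 0.02 (SE 0.07, adjusted p = 0.884). SHMT1, the cytosolic serine hydroxymethyltransferase, differed by 0.06 (SE 0.08), TK1 by 0.09, DTYMK by 0.09, RRM1 by 0.10, RRM2 by 0.16 and GMPS by 0.16. DUT, which removes dUTP, was the deoxynucleotide gene that did pass, at 0.27 (SE 0.07). Of 28 S phase genes, 20 were higher in PM shGFP and none was lower (median log2 0.35), and of 22 genes of mitosis 1 was higher and 2 were lower. Over all genes 14.1% were higher and 11.4% lower. The calls of CTPS1 and HPRT1 were near the threshold, with adjusted p = 0.0464 and 0.0448, and were lost in 20 and 19 of the 24 fits that left out 1 library each (adjusted p up to 0.249 and 0.215). They were also lost in 7 and 8 of the 9 other alternatives (adjusted p up to 0.210 and 0.132). CTPS2 was lost without replicate 1 or 4 of either line (adjusted p up to 0.144), and ATIC without replicate 1 of PE shGFP or 2 of PM shGFP (up to 0.0571). The compared groups alone and the 3 libraries left out also lost CTPS2 (adjusted p up to 0.0686).

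**Figure D1:**
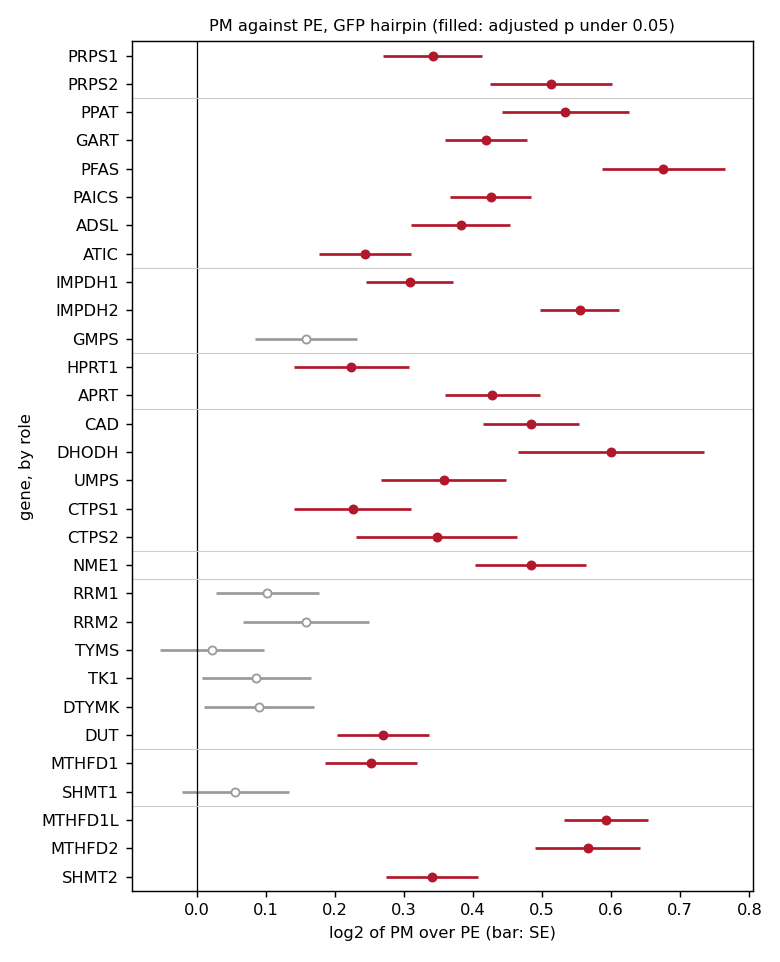
Log2 difference of PM shGFP over PE shGFP for each of the 30 genes, grouped by role, with the SE as a bar and filled points for an adjusted p under 0.05. All 30 points lie above 0, and 5 of the 7 open points are deoxynucleotide genes.

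Depletion of CHD1 moved single steps of the pathway rather than all of it, and it did so in both directions. In PM, shCHD1 A against shGFP gave 10 genes higher and 7 lower, where 27.8% of all genes were called (13.4% higher and 14.3% lower). In PM, shCHD1 B gave 3 higher and 10 lower, where 28.1% of all genes were called (13.6% and 14.4%). In PE, shCHD1 A gave 5 higher and 10 lower, where 20.2% of all genes were called (10.9% and 9.33%). In PE, shCHD1 B gave 4 higher and 13 lower, where 26.8% of all genes were called (13.6% and 13.2%). Median log2 changes of the 30 genes were 0.12 and −0.13 with hairpins A and B in PM, and −0.06 and −0.14 in PE, with all-gene medians between −0.01 and 0.01. The hairpins of a line share its shGFP libraries, so their agreement is not independent.

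Under both hairpins, 2 of the 30 genes were higher in PM, a share near that of all genes, where 6.46% were higher. Of the 30 genes, 6 were lower in PM, where 6.89% of all genes were lower. In PE 3 of the 30 genes were higher under both, where 6.75% of all genes were higher, and 8 were lower, where 5.58% of all genes were lower. IMPDH2 and DTYMK were higher, and PRPS1, PRPS2, HPRT1, RRM2, TK1 and DUT lower, in all 4 contrasts. PE added SHMT1 among the higher genes and TYMS and CAD among the lower ones. Scaled by library size alone, the splits were 3 higher and 12 lower for shCHD1 A in PE, and 4 higher and 8 lower for shCHD1 B in PM. That scaling also moved the calls over all 20820 genes. It gave 1704 higher and 2638 lower for shCHD1 A in PE, and 3353 and 2549 for shCHD1 B in PM. With the 3 libraries that stood apart left out together, 13 genes were higher and 7 lower for shCHD1 A in PM, 4 and 9 for shCHD1 B in PM, 3 and 10 for shCHD1 A in PE and 3 and 15 for shCHD1 B in PE. PM against PE with shGFP then gave 20 higher and none lower. Shares over all genes are not given here for that fit. The count of 5 higher genes for shCHD1 A in PE fell to 3 without replicate 1 or 4 of PE shCHD1 A or replicate 1 or 2 of PE shGFP.

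**Figure D2:**
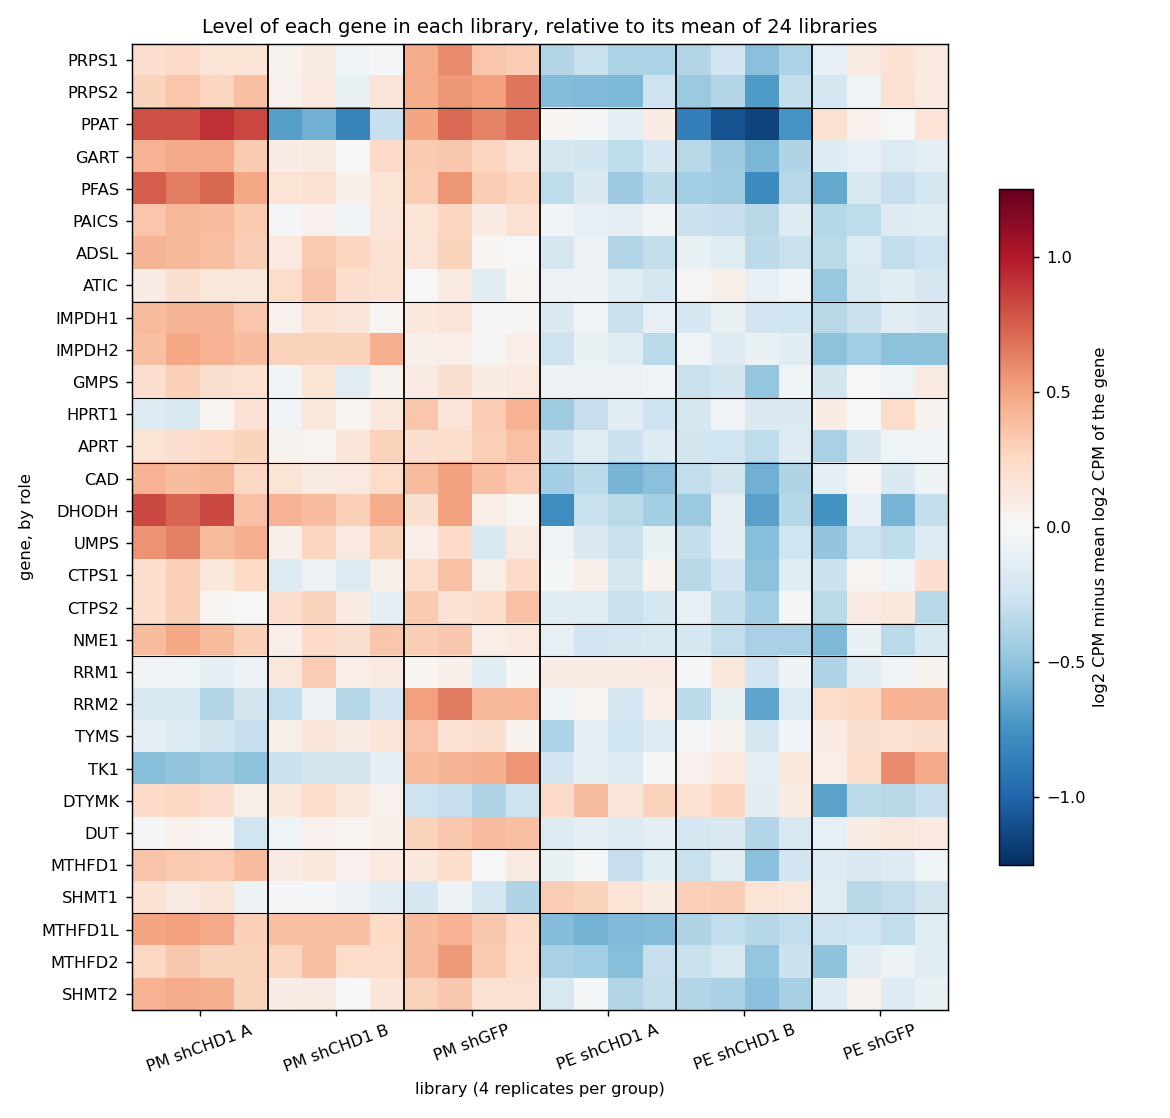
Level of each of the 30 genes in each of the 24 libraries as log2 CPM minus the mean of the gene, with genes in rows by role and libraries in columns by group. The PM columns are mostly above the mean of a gene, and PPAT is lowest in the shCHD1 B columns of both lines.

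**Figure D3:**
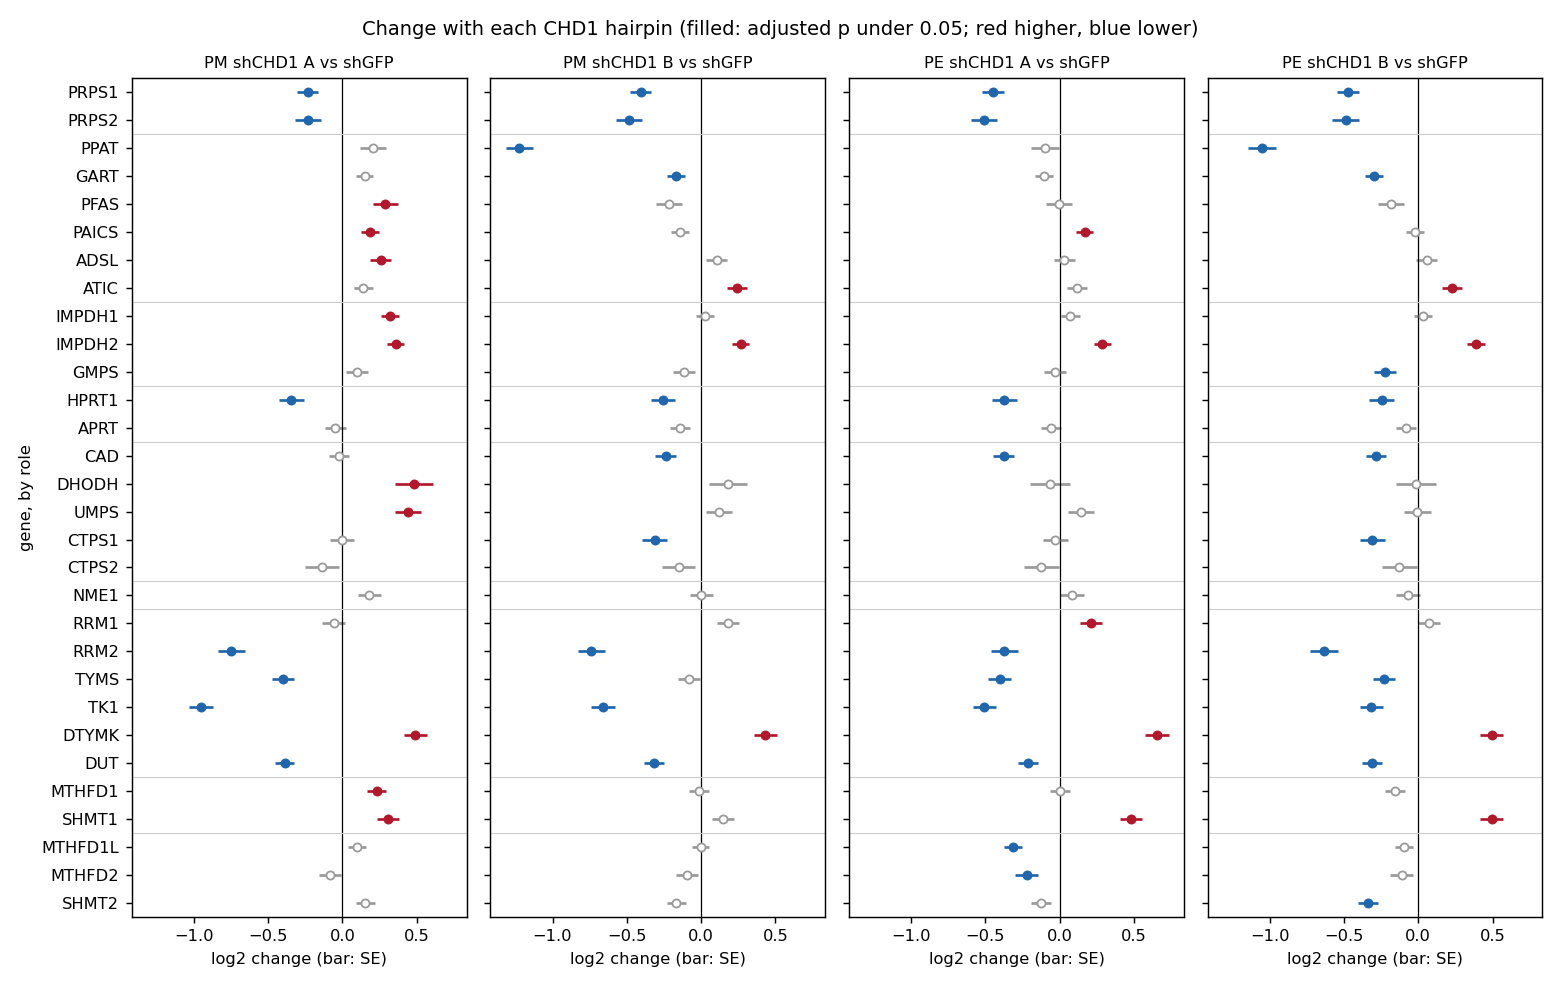
Log2 change with shCHD1 A and shCHD1 B against shGFP in PM and in PE, with the SE as a bar and filled points for an adjusted p under 0.05. IMPDH2 and DTYMK are filled to the right in all 4 panels, and PRPS1, PRPS2, HPRT1, RRM2, TK1 and DUT to the left.

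Both genes for the synthesis of PRPP were lower in CHD1-depleted cells of both lines. PRPS1 (chrX:107628510-107651026) had 82.8, 84.6, 80.7 and 80.7 CPM in PM shCHD1 A and 73.9, 77.4, 69.7 and 71.0 in PM shCHD1 B, against 98.9, 108, 91.1 and 88.9 in PM shGFP. The PE libraries held 55.6, 59.1, 54.3 and 54.5 CPM with shCHD1 A and 55.4, 60.5, 49.9 and 54.2 with shCHD1 B, against 66.5, 77.4, 80.8 and 78.0 with shGFP. In each line no library with a CHD1 hairpin reached the lowest shGFP library. Its log2 changes came to −0.23 and −0.41 in PM and −0.45 and −0.47 in PE (SE 0.07 each, adjusted p = 0.0109, 2.71e-05, 1.47e-05 and 3.43e-06), and the first of these was lost without replicate 2 of PM shGFP (adjusted p = 0.0784). PRPS2 (chrX:12791412-12824222), whose promoter is printed above, had 76.2, 79.5, 75.4 and 81.6 CPM in PM shCHD1 A and 65.3, 68.5, 58.8 and 70.1 in PM shCHD1 B, against 86.5, 91.2, 89.4 and 99.9 in PM shGFP. Its PE levels were 43.1, 42.7, 42.4 and 52.5 CPM with shCHD1 A and 45.5, 48.6, 38.4 and 51.1 with shCHD1 B, against 53.8, 60.5, 71.5 and 68.4 with shGFP. Here too the groups did not overlap, although replicate 4 of PE shCHD1 A stood well above its 3 partners. Its log2 changes were −0.23 and −0.48 in PM and −0.51 and −0.49 in PE (SE 0.09). The call with shCHD1 A in PM was narrow (adjusted p = 0.0421) and was lost with DESeq2 and in 6 of 24 fits without 1 library. Those 6 left out replicates 1, 2 or 3 of PM shCHD1 A or replicates 2, 3 or 4 of PM shGFP (adjusted p up to 0.138).

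PPAT, the amidophosphoribosyltransferase that takes the first committed step to purines, differed more between the hairpins than any other of the 30 genes. PPAT (chr4:56393362-56435615, minus strand) had 96.0, 96.2, 104 and 98.8 CPM in PM shCHD1 A and 34.3, 36.5, 30.99 and 45.1 in PM shCHD1 B, against 77.7, 90.4, 84.8 and 89.5 in PM shGFP. PE cultures gave 56.0, 54.8, 50.9 and 59.0 CPM with shCHD1 A and 30.4, 25.9, 24.7 and 33.03 with shCHD1 B, against 63.0, 57.3, 55.4 and 62.0 with shGFP. Every shCHD1 B library lay below every other library of its line. Group means with shCHD1 B were 36.7 ± 6.03 CPM in PM and 28.5 ± 3.88 CPM in PE, against 85.6 ± 5.79 in PM shGFP and 59.4 ± 3.65 in PE shGFP (SD, n = 4 each). The log2 changes with shCHD1 B were −1.22 in PM (SE 0.09, adjusted p = 1.2e-12) and −1.05 in PE (SE 0.09, adjusted p = 9.25e-11). With shCHD1 A they were 0.21 in PM (SE 0.09, adjusted p = 0.0875) and −0.10 in PE (SE 0.09, adjusted p = 0.529). The PM shCHD1 A libraries all lay above PM shGFP, and with the replicate number as a block that rise passed the test (adjusted p = 0.0275). It also passed with limma-voom (adjusted p = 0.0415) and with the compared groups alone (0.0148). Hairpin B against hairpin A gave −1.43 in PM (SE 0.09, adjusted p = 5.15e-14) and −0.95 in PE (SE 0.09, adjusted p = 1.76e-09). A two-sided exact permutation test of PPAT between the hairpins gave p = 0.0286 in each line, the smallest that 70 assignments allow (0.0606 adjusted over all single-gene tests of this kind). CHD1 itself differed by −0.08 (SE 0.10) in PM and −0.06 (SE 0.10) in PE between the hairpins, below the test's threshold. MYC differed by −0.52 in PM (adjusted p = 3.75e-08) and 0.09 in PE (adjusted p = 0.359), and its part in the PPAT result was not tested.

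PAICS, the bifunctional enzyme whose gene starts beside PPAT in the opposite direction, did not follow its neighbour in size. PAICS had 549, 575, 566 and 541 CPM in PM shCHD1 A and 427, 448, 422 and 483 in PM shCHD1 B, against 486, 519, 463 and 495 in PM shGFP. In PE it had 420.5, 401, 400.5 and 419 CPM with shCHD1 A and 359, 354, 339 and 387 with shCHD1 B, against 337, 347, 387 and 388 with shGFP. The shCHD1 A libraries lay above all shGFP libraries in each line, whereas the shCHD1 B libraries overlapped them. It rose with shCHD1 A by 0.19 in PM (SE 0.06, adjusted p = 0.0149) and by 0.17 in PE (SE 0.06, adjusted p = 0.0388). With shCHD1 B its log2 change was −0.14 in PM (SE 0.06, adjusted p = 0.0710, and 0.0328 with the replicate number as a block) and −0.02 in PE (SE 0.06, adjusted p = 0.849). The PE call with shCHD1 A was lost without replicate 1 or 4 of PE shCHD1 A or replicate 1 or 2 of PE shGFP (adjusted p up to 0.131). Library sizes alone, limma-voom and no filter on low counts lost it too. So did the compared groups alone and the 3 libraries left out (adjusted p up to 0.148 in these 5 settings). Rows of PAICS pseudogenes held counts equal to 4.02% of its own, the largest such share among the 30 genes, and the annotated spans of PAICS and PPAT overlap on opposite strands.

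Of the other 4 genes of the purine chain, none passed as lower with shCHD1 A by the edgeR fit used here, and GART fell with shCHD1 B. GART, which carries 3 activities of the chain, had 338, 347, 346 and 314 CPM in PM shCHD1 A and 266, 270.3, 249 and 294 in PM shCHD1 B, against 312, 315, 301 and 285 in PM shGFP. The PE libraries held 216, 212, 199.9 and 216 CPM with shCHD1 A and 196, 182, 168 and 193 with shCHD1 B, against 223, 233, 222 and 229 with shGFP. The PE shCHD1 B libraries were the lowest, and the PM groups overlapped. In PE the shCHD1 A libraries also lay below every shGFP library. This difference passed as a fall only with library sizes alone (log2 −0.18, adjusted p = 0.0161) and with a floor of 5 CPM (log2 −0.14, adjusted p = 0.0323), among the alternatives that kept every library. With shCHD1 A in PM the log2 change of GART was 0.15 (adjusted p = 0.0574, and 0.0276 with the replicate number as a block). It passed as a rise with DESeq2 (adjusted p = 0.0134), its size factors (0.0209), limma-voom (0.0259) and library sizes alone (0.0444). The compared groups alone (0.0322), a floor of 5 CPM (0.0216) and the 3 libraries left out (0.0251) also gave a rise that passed. The fall with shCHD1 B was −0.17 in PM (SE 0.06, adjusted p = 0.0286) and −0.30 in PE (SE 0.06, adjusted p = 2.06e-04), and GART overlaps SON on the opposite strand. The PM call was lost without replicate 1, 2 or 3 of PM shCHD1 B or of PM shGFP (adjusted p up to 0.127). DESeq2 size factors, library sizes alone and no filter on low counts lost it too. So did the compared groups alone and the 3 libraries left out (adjusted p up to 0.117 in these 5 settings). PFAS and ADSL, the adenylosuccinate lyase, rose with shCHD1 A in PM, by 0.29 (SE 0.09, adjusted p = 0.0110) and 0.26 (SE 0.07, adjusted p = 0.00520). With shCHD1 B in PM, PFAS was at −0.21 (adjusted p = 0.0640), and with the replicate number as a block this passed as a fall (adjusted p = 0.0393). The fall also passed with limma-voom (adjusted p = 0.0296), the compared groups alone (0.0250) and no filter on low counts (0.0406). ATIC, which closes the purine ring and whose promoter holds E-boxes on both sides of its start, rose with shCHD1 B in both lines. ATIC had 246, 269, 243 and 238 CPM in PM shCHD1 B, against 209, 227, 192 and 214 CPM in PM shGFP. Its PE levels were 213, 220.3, 195 and 205 CPM with shCHD1 B, against 151, 183, 192 and 182 CPM with shGFP. Neither pair of groups overlapped, with log2 changes of 0.24 in PM (SE 0.07, adjusted p = 0.00457) and 0.23 in PE (SE 0.07, adjusted p = 0.00890). The PE call was lost with the 3 libraries left out (adjusted p = 0.0540). With shCHD1 A the mean log2 CPM of ATIC was above shGFP by 0.14 in PM and 0.13 in PE, neither called by edgeR. That PM rise passed with DESeq2 (adjusted p = 0.0422) and its size factors (0.0498).

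**Figure D4:**
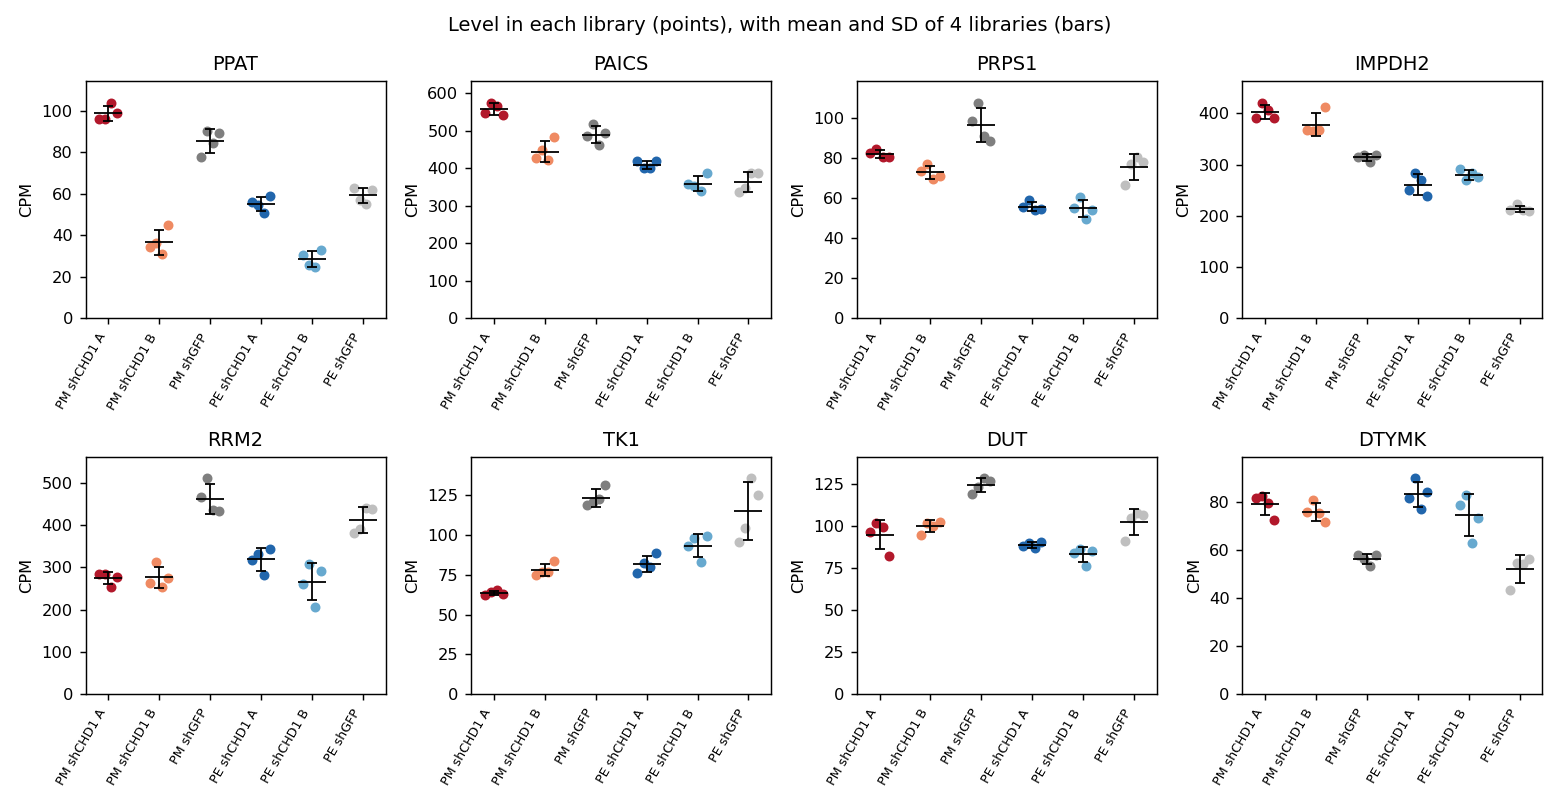
CPM of 8 genes in each library of the 6 groups, with points for libraries and bars for the mean and SD of 4 libraries. PPAT is near 36.7 and 28.5 CPM in the shCHD1 B groups, and RRM2, TK1 and DUT are lower and DTYMK and IMPDH2 higher with either CHD1 hairpin than with shGFP.

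At the branch to guanine nucleotides, IMPDH2 rose with both hairpins in both lines. IMPDH2 (chr3:49024325-49029398), the main inosine monophosphate dehydrogenase of dividing cells, had 391, 421, 407 and 392 CPM in PM shCHD1 A and 368, 364, 366 and 412 in PM shCHD1 B, against 314, 319, 304 and 318 in PM shGFP. PE cultures gave 251, 283, 270.5 and 238 CPM with shCHD1 A and 291, 269, 283 and 275 with shCHD1 B, against 211, 223, 211 and 210.1 with shGFP. Every library with a CHD1 hairpin was above every shGFP library of its line. The log2 changes were 0.36 and 0.27 in PM and 0.29 and 0.39 in PE (SE 0.06, largest adjusted p = 4.03e-04). These 4 calls held in all 33 other fits that were run. IMPDH1, the second such enzyme, rose with shCHD1 A in PM, to 199, 204, 204 and 193 CPM, against 166, 169, 153 and 154 CPM in PM shGFP (log2 0.32, SE 0.06, adjusted p = 1.24e-04), with no overlap. Its change in PE was 0.07, and the difference of 0.25 between the lines did not pass (adjusted p = 0.0904). GMPS, which aminates xanthosine monophosphate to GMP, fell with shCHD1 B in PE, to 130.1 ± 15.7 CPM, against 151 ± 14.8 CPM in PE shGFP (SD, n = 4 each), with overlapping libraries (log2 −0.23, adjusted p = 0.0199). It was lost without replicate 1 or 3 of PE shCHD1 B or replicate 2 or 4 of PE shGFP (adjusted p up to 0.116). The compared groups alone also lost it (adjusted p = 0.0665). Rows of IMPDH1 pseudogenes held counts equal to 2.95% of its own.

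In purine salvage, HPRT1 fell in all 4 contrasts and APRT in none. HPRT1 (chrX:134460165-134500668), which joins hypoxanthine and guanine to PRPP, had 54.4, 53.1, 62.4 and 69.0 CPM in PM shCHD1 A and 58.8, 66.9, 62.0 and 66.5 in PM shCHD1 B, against 77.5, 67.8, 75.8 and 82.1 in PM shGFP. In PE it had 44.6, 49.8, 55.4 and 50.7 CPM with shCHD1 A and 52.2, 59.3, 53.7 and 53.7 with shCHD1 B, against 64.7, 60.7, 71.2 and 62.6 with shGFP. Only replicate 4 of PM shCHD1 A, at 69.0 CPM, reached into the shGFP range. Its log2 changes came to −0.34 and −0.25 in PM and −0.37 and −0.25 in PE (SE 0.08, adjusted p = 0.00139, 0.0169, 0.00112 and 0.0251). With shCHD1 B the call was lost in PM without replicate 1 of shCHD1 B or 4 of shGFP (adjusted p up to 0.0757), and in PE without replicate 1 or 4 of shCHD1 B or 3 of shGFP (up to 0.130). Library sizes alone also lost the PM call with shCHD1 B (adjusted p = 0.0537). APRT, the adenine counterpart, stayed between −0.14 and −0.05 on the log2 scale in the 4 contrasts, with adjusted p from 0.132 to 0.686 (with the replicate number as a block, shCHD1 B in PM gave 0.0478).

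Pyrimidine genes split by step and by line. CAD (chr2:27217369-27243943), which carries the first 3 activities of the pathway, had 162, 173, 145 and 151 CPM in PE shCHD1 A and 176, 186, 144 and 168 in PE shCHD1 B, against 200.5, 219.7, 191 and 207 in PE shGFP. In PM it had 294, 284, 289 and 260.0 CPM with shCHD1 A and 245, 235, 236 and 255 with shCHD1 B, against 287, 307, 281 and 269.9 with shGFP. CAD was below all shGFP libraries in 3 of the 4 groups, and in PM shCHD1 A it overlapped them. The log2 changes were −0.38 and −0.28 with shCHD1 A and B in PE (SE 0.07, adjusted p = 1.14e-04 and 0.00185), and −0.02 and −0.24 in PM (adjusted p = 0.864 and 0.00781). Without replicate 2 of PM shGFP the PM call with shCHD1 B was lost (adjusted p = 0.0510). UMPS, which makes the first complete pyrimidine, rose with shCHD1 A in PM, to 89.8, 94.0, 80.2 and 82.9 CPM, against 64.4, 72.0, 53.4 and 65.6 CPM in PM shGFP. Its groups did not overlap (log2 0.44, SE 0.09, adjusted p = 1.78e-04). DHODH also rose there, to 38.2, 35.9, 38.4 and 27.8 CPM, against 24.8, 30.6, 23.0 and 22.1 CPM in PM shGFP, with replicate 4 of shCHD1 A inside the shGFP range (log2 0.48, SE 0.13, adjusted p = 0.00405). CTPS1, which makes CTP, fell with shCHD1 B, to 140.1, 149, 139.7 and 164 CPM, against 183, 202, 165 and 186 CPM with shGFP in PM. In PE it fell to 123, 133, 110.1 and 141 CPM with shCHD1 B, against 131, 160.4, 153 and 182 CPM with shGFP, where the libraries overlapped. Both log2 changes were −0.31 (SE 0.08, adjusted p = 0.00449 in PM and 0.00542 in PE), and the PE call was lost without replicate 4 of PE shGFP (adjusted p = 0.0512). CTPS2, the less abundant CTP synthetase per length, did not pass in any of the 4 contrasts, at −0.15 to −0.12. Nor did NME1, whose locus also has a read-through transcript with NME2, at −0.07 to 0.18. With shCHD1 A in PM, NME1 passed as a rise with the replicate number as a block (adjusted p = 0.0464), DESeq2 (0.0403), its size factors (0.0436) and limma-voom (0.0299). The compared groups alone (0.0468) and the 3 libraries left out (0.0412) gave the same call.

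Among deoxynucleotide genes, RRM2, TK1 and DUT fell and DTYMK rose in every contrast. RRM2 (chr2:10122568-10211010), the S phase subunit of ribonucleotide reductase, had 284, 283, 253 and 278 CPM in PM shCHD1 A and 263, 312, 254 and 275 in PM shCHD1 B, against 465, 510.1, 435 and 433 in PM shGFP. The PE libraries held 318, 332, 281 and 344 CPM with shCHD1 A and 259.8, 308, 206 and 290.3 with shCHD1 B, against 382, 391, 439.7 and 438 with shGFP. The highest library with a CHD1 hairpin was below the lowest shGFP library in each line. Its log2 changes came to −0.75 and −0.74 in PM and −0.37 and −0.63 in PE (SE 0.09, largest adjusted p = 0.00353). TK1 (chr17:78174079-78187204), the thymidine kinase of cycling cells, had 62.2, 64.0, 65.5 and 63.1 CPM in PM shCHD1 A and 74.9, 77.0, 76.9 and 83.5 in PM shCHD1 B, against 119, 121, 123 and 132 in PM shGFP. Its PE levels were 76.2, 82.6, 79.9 and 88.5 CPM with shCHD1 A and 93.4, 98.0, 83.2 and 99.2 with shCHD1 B, against 95.5, 105, 136 and 125 with shGFP. The PM groups were clear of each other, and in PE the shCHD1 B libraries overlapped replicate 1 of shGFP. The log2 changes of TK1 were −0.95 and −0.66 in PM and −0.51 and −0.32 in PE (SE 0.08, largest adjusted p = 0.00232).

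DUT (chr15:48331095-48343373), the dUTP pyrophosphatase, had 96.3, 102, 99.5 and 82.2 CPM in PM shCHD1 A and 94.7, 102, 100.2 and 102 in PM shCHD1 B, against 119, 123, 128 and 127 in PM shGFP. PE cultures gave 87.9, 90.2, 87.0 and 90.3 CPM with shCHD1 A and 84.3, 86.7, 76.2 and 85.3 with shCHD1 B, against 91.2, 105, 108 and 107 with shGFP. The groups did not overlap, by the least margin in PE shCHD1 A. Its log2 changes were −0.39 and −0.32 in PM and −0.22 and −0.31 in PE (SE 0.07), and the call for shCHD1 A in PE (adjusted p = 0.0189) was lost without replicate 2, 3 or 4 of PE shGFP (up to 0.0751). DTYMK (chr2:241675747-241686815), the thymidylate kinase that acts after TYMS and TK1, had 81.8, 82.6, 79.9 and 72.5 CPM in PM shCHD1 A and 76.0, 81.1, 75.5 and 71.9 in PM shCHD1 B, against 57.9, 56.5, 53.4 and 57.9 in PM shGFP. In PE it had 81.6, 90.03, 77.2 and 84.4 CPM with shCHD1 A and 78.9, 83.2, 63.0 and 73.6 with shCHD1 B, against 43.6, 54.8, 54.3 and 56.5 with shGFP. Every library with a CHD1 hairpin exceeded every shGFP library of its line. DTYMK rose by 0.49 and 0.43 in PM and 0.65 and 0.49 in PE (SE 0.08, largest adjusted p = 4.89e-05), opposite to TK1.

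By the edgeR fit used here, TYMS fell in 3 of the 4 contrasts, and RRM1 rose in 1. TYMS had 49.4, 47.2, 45.6 and 43.5 CPM in PM shCHD1 A and 56.1, 59.1, 56.8 and 59.7 in PM shCHD1 B, against the PM shGFP values given above. The PE libraries held 40.6, 48.8, 44.9 and 47.8 CPM with shCHD1 A and 52.7, 54.9, 45.7 and 52.0 with shCHD1 B, against 57.2, 61.1, 60.7 and 61.2 with shGFP. Only the PM shCHD1 B libraries overlapped their shGFP group. The log2 changes were −0.40 and −0.08 in PM (adjusted p = 7.16e-05 and 0.496) and −0.40 and −0.23 in PE (adjusted p = 1.23e-04 and 0.0185), and TYMS overlaps ENOSF1 on the opposite strand. The call with shCHD1 B in PE was lost without its replicate 3 (adjusted p = 0.0934) and with no filter on low counts (adjusted p = 0.0527). RRM1, the large reductase subunit, rose with shCHD1 A in PE, to 180.4, 181, 180.1 and 182 CPM, against 129.9, 153, 164 and 175 CPM with shGFP (log2 0.21, SE 0.08, adjusted p = 0.0451). Its call was lost in 7 of the 24 fits without 1 library, those without any 1 replicate of PE shCHD1 A, replicate 1 of PE shCHD1 B or replicate 1 or 2 of PE shGFP (adjusted p up to 0.184). Library sizes alone, limma-voom and a floor of 5 CPM lost it too. So did the compared groups alone and the 3 libraries left out (adjusted p up to 0.197 in these 5 settings). In the other contrasts RRM1 was at 0.07 with shCHD1 B in PE, −0.06 with shCHD1 A in PM and 0.18 with shCHD1 B in PM (adjusted p = 0.0709, and 0.0311 with the replicate number as a block). That last rise also passed with DESeq2 (adjusted p = 0.0234), its size factors (0.0254), limma-voom (0.0359) and library sizes alone (0.0113). It passed too with the compared groups alone (0.0386), a floor of 5 CPM (0.0135) and the 3 libraries left out (0.0297), though not without a filter. The PM shCHD1 B libraries of RRM1 (179.9 to 211 CPM) lay above those of PM shGFP (152 to 176 CPM).

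Markers of S phase and mitosis moved in the same contrasts as the deoxynucleotide genes. Of 28 S phase genes, 20 fell and 1 rose with shCHD1 A in PM, and 23 fell and 1 rose with shCHD1 B. In PE, 18 fell and 1 rose with shCHD1 A, and 22 fell and 1 rose with shCHD1 B. Over all genes, 14.3% and 14.4% fell with hairpins A and B in PM, and 9.33% and 13.2% in PE. The exception under both hairpins in both lines was PCNA, the polymerase clamp. Their summed level was 2090.0 to 2233 CPM in PM shCHD1 A and 1911 to 2188 in PM shCHD1 B, against 2664 to 2975 in PM shGFP. In PE it was 1511 to 1868 CPM with shCHD1 A and 1244 to 1801 with shCHD1 B, against 1961 to 2403 with shGFP. The 6 deoxynucleotide genes summed to 699 to 742 CPM in PM shCHD1 A and 743 to 842 in PM shCHD1 B, against 954 to 1048 in PM shGFP, with no overlap. In PE they summed to 750.4 to 837 CPM with shCHD1 A and 618 to 818 with shCHD1 B, against 799 to 963 with shGFP, with overlap. Of 22 genes of mitosis, 14 fell under both hairpins in PM and 11 in PE, where 6.89% and 5.58% of all genes did. NUF2 rose under both hairpins in both lines and CCNB2 in PE, and 1 gene in PM was called in opposite directions. The part of fewer cells in S phase in the deoxynucleotide results was not tested.

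By the edgeR fit used here, SHMT1 rose among folate genes, and the mitochondrial genes fell or did not pass. SHMT1 (chr17:18327873-18363550) had 64.5, 62.7, 58.3 and 55.2 CPM in PE shCHD1 A and 63.8, 64.1, 58.2 and 57.2 in PE shCHD1 B, against 46.7, 40.8, 41.8 and 44.3 in PE shGFP. In PM it had 58.7, 55.8, 57.8 and 49.5 CPM with shCHD1 A and 51.1, 51.0, 49.4 and 47.3 with shCHD1 B, against 44.9, 49.8, 44.6 and 40.1 with shGFP. The PE groups were apart, and the PM groups touched. Its log2 changes came to 0.48 and 0.49 with shCHD1 A and B in PE (SE 0.08, adjusted p = 1.52e-05 and 5.5e-06), and 0.31 and 0.15 in PM (adjusted p = 0.00180 and 0.149). MTHFD1, the trifunctional cytosolic enzyme, rose with shCHD1 A in PM by 0.23 (SE 0.07, adjusted p = 0.00778), to 262 ± 5.43 CPM, against 223 ± 13.5 CPM in PM shGFP (SD, n = 4 each). MTHFD1L (chr6:150865702-151101887) fell with shCHD1 A in PE, to 80.4, 77.3, 79.4 and 80.1 CPM, against the PE shGFP values given above, with no overlap (log2 −0.31, SE 0.06, adjusted p = 1.91e-04). MTHFD2 fell there by 0.22 on the log2 scale with overlapping libraries (adjusted p = 0.0349). That call was lost without replicate 2 or 3 of PE shCHD1 A or replicate 2, 3 or 4 of PE shGFP (adjusted p up to 0.145). SHMT2, the mitochondrial serine hydroxymethyltransferase, fell with shCHD1 B in PE, to 219, 213, 196 and 211 CPM, against 252, 289.8, 252 and 265 CPM in PE shGFP, with no overlap (log2 −0.34, SE 0.07, adjusted p = 1.58e-04). In PM no mitochondrial folate gene passed by that fit. With the replicate number as a block, SHMT2 passed in opposite directions, higher with shCHD1 A (adjusted p = 0.0223) and lower with shCHD1 B (adjusted p = 0.0154). The rise with shCHD1 A also passed with DESeq2 (adjusted p = 0.0340), its size factors (0.0356) and limma-voom (0.0348). It passed too with the compared groups alone (0.0344), a floor of 5 CPM (0.0454) and the 3 libraries left out (0.0332), though not with library sizes alone or without a filter. The fall with shCHD1 B also passed with limma-voom (adjusted p = 0.0296) and the compared groups alone (0.0457). SHMT1, MTHFD1, MTHFD2 and SHMT2, like PFAS and CTPS2, overlap coding genes on the opposite strand, and the strand setting of the counting is not stated.

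The response to CHD1 depletion differed between the lines for 3 of the 30 genes with shCHD1 A (10.0%, where 6.66% of all genes were called, 2.76% higher and 3.9% lower) and for none with shCHD1 B, where 2.45% of all genes were called, 1.47% higher and 0.98% lower. For shCHD1 A the PM change exceeded the PE change in CAD by 0.35 (SE 0.10, adjusted p = 0.0220) and in MTHFD1L by 0.41 (SE 0.08, adjusted p = 0.00183). In CAD this set −0.02 in PM beside −0.38 in PE, and in MTHFD1L 0.10 in PM beside −0.31 in PE. TK1 fell more in PM than in PE, by 0.95 against 0.51 (difference −0.45, SE 0.11, adjusted p = 0.0101). Of the 30 differences for shCHD1 A, 23 were above 0, with a median of 0.11, beside −0.02 over all genes. None of the 28 S phase genes differed between the lines with either hairpin by this edgeR test.

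The number of genes whose signed log2 change with shCHD1 A was higher in PM than in PE depended on 1 library or on the method. It was 2 here, 5 with DESeq2 size factors, 6 with DESeq2 and 7 with library sizes alone, with 1 gene lower in each case. With the replicate number as a block it was 8, with 2 genes lower. Without replicate 2 of PE shGFP it was 1 and the call of CAD was lost (adjusted p = 0.0691). It was 6 without replicate 1 of PE shGFP, replicate 4 of PM shCHD1 A or replicate 2 of PM shGFP, and 4 without replicate 2 of PE shCHD1 A, replicate 3 or 4 of PE shCHD1 B or replicate 4 of PM shCHD1 B. With the 3 libraries that stood apart left out together it was 7, an alternative added after the data were seen. The genes gained there were DHODH, GART, IMPDH1, PFAS and SHMT2. The block added DHODH (adjusted p = 0.0213), GART (0.0225), IMPDH1 (0.0354), MTHFD1 (0.0417), SHMT2 (0.0101) and UMPS (0.0394) as higher. It added RRM2 as lower (adjusted p = 0.0173). Of all 20820 genes, 682 were higher and 716 lower with DESeq2 size factors. Library sizes alone gave 838 and 646, and the block 854 and 1330. DESeq2 gave 888 and 889 of 16380. For shCHD1 B, TK1 was at −0.34 (adjusted p = 0.105) and SHMT1 at −0.35 (adjusted p = 0.0875), and all other genes had larger adjusted p.

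Beyond PPAT, the 2 hairpins against CHD1 differed from each other for genes of most roles in PM. In PE the called genes belonged to the purine chain or to the pyrimidine, deoxynucleotide and mitochondrial folate roles only. Hairpin B against hairpin A gave 3 genes higher and 12 lower in PM, 50% of the 30 genes, where 26.3% of all genes were called (12.7% higher and 13.5% lower). In PE it gave 1 higher and 6 lower, 23.3% of the 30 genes, where 16.6% of all genes were called (7.48% higher and 9.09% lower). PPAT, GART, PAICS, CTPS1 and SHMT2 were lower with hairpin B in both lines. In PM the log2 differences were −0.32 for GART, −0.50 for PFAS, −0.33 for PAICS, −0.32 for SHMT2, −0.32 for UMPS and −0.29 for IMPDH1, beside PPAT above. Adjusted p for these 6 was at most 0.00537. CTPS1, MTHFD1, CAD, PRPS2 and GMPS were lower by between 0.21 and 0.31 in PM. The genes higher with hairpin B in PM were TK1 at 0.29, TYMS at 0.32 and RRM1 at 0.24 (largest adjusted p = 0.0149). MTHFD1L was the gene higher with hairpin B in PE, at 0.22 (adjusted p = 0.00866), and RRM2 there was lower at −0.26 (adjusted p = 0.0470).

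Scaled by library size alone, the hairpin comparison gave 4 higher and 9 lower in PM, and 4 higher and 3 lower in PE, so the balance of directions in PE depends on the scaling. Over all 20820 genes that scaling gave 3192 higher and 2257 lower in PM, and 1975 and 1525 in PE. With the replicate number as a block, 1 more gene was higher in PE, TK1 (adjusted p = 0.0385), and GMPS and MTHFD1 were lower (adjusted p = 0.0159 and 0.0329). In PM the block added ADSL, DHODH and PRPS1 to the lower genes (adjusted p = 0.0404, 0.0365 and 0.0304). The count of 6 lower genes in PE was 1 without replicate 3 of PE shCHD1 B, 2 without replicate 1 or 2 of PE shCHD1 A and 3 without replicate 4 of PE shCHD1 A. In PE, PAICS, SHMT2, GART and CTPS1 were also lost without replicate 3 of PE shCHD1 B, PAICS, SHMT2 and GART without replicate 1 of PE shCHD1 A, and SHMT2, GART and CTPS1 without its replicate 2 (adjusted p up to 0.188). GART and CTPS1 were lost without replicate 4 of PE shCHD1 A, and CTPS1 without replicate 1 of PE shCHD1 B. Library sizes alone lost GART and SHMT2 in PE, and no filter on low counts lost GART and PAICS (adjusted p up to 0.0818). In PM, CAD, PRPS2 and GMPS were lost in 4, 4 and 3 such fits, each of which left out a PM library with a CHD1 hairpin (adjusted p up to 0.139), and RRM1 without replicate 2 of PM shCHD1 B (adjusted p = 0.0611). Library sizes alone also lost CAD, PRPS2 and GMPS in PM, and the 3 libraries left out lost PRPS2 and GMPS (adjusted p up to 0.191). The PE value of RRM2 was lost in 16 of 24 fits without 1 library (adjusted p up to 0.206). It was also lost in 4 of the 9 other alternatives (adjusted p up to 0.119).

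Outside the 30 genes, 66 of 71 other genes of nucleotide and folate metabolism were tested, and they moved in both directions. In PM shCHD1 A gave 17 higher and 13 lower and shCHD1 B 15 and 13, and in PE shCHD1 A gave 11 and 15 and shCHD1 B 14 and 15. The called shares were 45.5% and 42.4% with hairpins A and B in PM, where 27.8% and 28.1% of all genes were called. In PE they were 39.4% and 43.9%, where 20.2% and 26.8% of all genes were called. Under both hairpins 8 of the 66 were higher and 6 lower in PM, where 6.46% and 6.89% of all genes were. In PE 8 were higher and 7 lower, where 6.75% and 5.58% of all genes were. NT5C3A, a pyrimidine nucleotidase, rose in PM to 31.9 and 27.4 CPM with shCHD1 A and B, against 17.0 CPM with shGFP (log2 0.91 and 0.69), and in PE by 0.80 and 0.62. SAMHD1, which degrades deoxynucleotides, rose by 0.71 and 0.66 in PM and 0.38 and 0.75 in PE. DGUOK, the mitochondrial deoxyguanosine kinase, rose by 0.39 and 0.80 in PM and 0.47 and 0.74 in PE. RRM2B, the p53-inducible reductase subunit, rose in PM by 0.64 (SE 0.08) and 0.91 (SE 0.08), while RRM2 fell. In PE RRM2B was at −0.01 and 0.51 (adjusted p = 0.973 and 1.22e-05).

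DCK, the deoxycytidine kinase of salvage, fell in PM by 0.64 and 0.43 on the log2 scale, and in PE by 0.62 and 0.49. UPP1, uridine phosphorylase, fell in PM by 0.76 and 0.44, and in PE by 0.43 and 0.66. NME4, a mitochondrial nucleoside diphosphate kinase, fell in PM by 0.87 and 0.44, and DCTD, the dCMP deaminase, by 0.24 and 0.86. In PE, PSAT1 of serine synthesis fell by 0.53 and 0.54, and ADA and TYMP, which break down adenosine and thymidine, rose by 0.76 and 0.74 as the mean of both hairpins. Between the lines with shGFP, 16 of the 66 were higher and 8 lower in PM, a called share of 36.4%. Over all genes 25.5% were called (14.1% higher and 11.4% lower). The falls were large for GDA, guanine deaminase, at 2.90 CPM in PM against 84.0 CPM in PE, and for GLDC, glycine decarboxylase, at 0.261 CPM in PM against 5.05 CPM in PE. Their log2 differences were −4.90 (SE 0.29) and −4.33 (SE 0.58).

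Per kilobase of exon, a scale that allows genes to be compared, IMPDH2 and APRT were the most abundant of the 30 transcripts. IMPDH2 was at 191 ± 4.02 CPM per kilobase in PM shGFP and 130.01 ± 3.63 in PE shGFP, and APRT at 174 ± 9.00 in PM shGFP and 128 ± 14.4 in PE shGFP (SD, n = 4 each). RRM2 followed at 119 ± 9.27 in PM shGFP and 107 ± 7.93 in PE shGFP, close to SHMT2 at 111 ± 5.48 in PM shGFP. At the low end DHODH was at 5.20 ± 0.789 in PM shGFP and 3.37 ± 0.666 in PE shGFP, and CTPS2 at 4.96 ± 0.301 in PM shGFP and 3.84 ± 0.693 in PE shGFP, neighbours whose spreads met. Among paired enzymes, IMPDH2 exceeded IMPDH1, CTPS1 exceeded CTPS2 and SHMT2 exceeded SHMT1 in both lines. PPAT, the committed step, was low at 23.2 ± 1.57 in PM shGFP and 16.1 ± 0.991 in PE shGFP, and stood at 9.97 ± 1.64 in PM shCHD1 B and 7.74 ± 1.05 in PE shCHD1 B. Lengths were exon unions of an annotation chosen for this work, so these levels carry the error of that choice.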

How the data were processed

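RNA with poly(A) tails from 24 cultures was sequenced with a directional kit, per the labels' protocols. Per the submitters' processing notes, the authors used FastQC, Trim Galore 0.4.0, HISAT2 2.2.1 and featureCounts on build GRCh38 (hg38). The authors deposited raw counts per gene. The annotation release, strand setting and treatment of multiply mapped reads are not stated. If strand was ignored, genes that overlap on opposite strands share reads.

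From the deposited counts, genes were kept by edgeR's filterByExpr over the 6 groups (20820 of 59251 genes), scaled by TMM and fitted with 1 mean per group by edgeR's robust quasi-likelihood method (edgeR 4.0.16, R 4.3.3), over all 24 libraries. Two-sided p-values were adjusted by Benjamini-Hochberg over all tested genes in each of 9 comparisons, with a threshold of 0.05. SEs were taken as the absolute log2 change over the square root of F. CPM values use TMM library sizes. All 30 genes are described. Of other lists, up to 8 genes with the largest mean change under both hairpins and up to 4 for PM against PE were named, each with at least 5 CPM in a compared group, and PCNA was named after its values were seen. The 30 genes and the lists were chosen with earlier results of these data known. The code was tested on simulated data.

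Replicate numbers in the labels were checked for pairing: deviations from group means of same-numbered libraries correlated above 0.1 in 51 of 60 pairs (range −0.01 to 0.41). All 4 pairs did so for shCHD1 A against shGFP in both lines, shCHD1 B against shGFP in PM and hairpin B against A in both lines, and these were read as paired. Where a fit with that block changes a call there, its adjusted p stands beside the result. Other alternatives changed some of these calls too, and not all of those changes are printed.

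Alternatives were DESeq2 (1.42.0), its size factors, library sizes alone, limma-voom (limma 3.58.1), other filters, the replicate block, the compared groups alone and leaving out each library. Depth ran from 4.14 to 93.3 M counts, and a gene at the smallest count of 58 carries the most counting error. Promoter sequences and positions are from RefSeq on GRCh38.p14. Exon lengths are unions of GENCODE basic exons.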

Additional observations from a re-analysis of the deposited data

Results flagged for a closer look

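Among 180 combinations of gene and group, 9 held a library far from the other 3 of its group by Dixon's criterion, where chance gives about 1 in 20. In PM, the highest library of PFAS in shGFP was replicate 2 at 179 CPM, with the others between 147 and 152 CPM. The lowest library of PFAS in PM shCHD1 B was replicate 3 at 128 CPM, with the others between 138 and 139.6 CPM. Replicate 4 of PM shCHD1 B held the highest IMPDH2, at 412 CPM with the others between 364 and 368 CPM, and the lowest MTHFD1L, at 139 CPM with the others between 151 and 152 CPM.

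In PE, replicate 4 of shCHD1 A held the highest PRPS2, at 52.5 CPM with the others between 42.4 and 43.1 CPM. Replicate 1 of PE shGFP, the library with the lowest total, held the lowest MTHFD2, at 127 CPM with the others between 164 and 171 CPM, and the lowest TYMS, at 57.2 CPM with the others between 60.7 and 61.2 CPM. Replicate 2 of PE shGFP held the highest IMPDH2, at 223 CPM with the others between 210.1 and 211 CPM. Replicate 4 of PE shGFP held the highest MTHFD1, at 199 CPM with the others between 182 and 184 CPM.

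The response to shCHD1 A differed between the lines, PM minus PE on the log2 scale, by 0.35 for CAD, 0.41 for MTHFD1L and −0.45 for TK1, each past edgeR's adjusted threshold of 0.05 in a test of the difference itself.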

How the results depend on the processing

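Of 110 calls on the 30 genes, 82 held under all 33 alternatives (24 without 1 library each and 9 others), 28 were lost under at least 1, and none changed direction. Of the 28, 10 were lost only where 1 library was left out. For shCHD1 A in PE, the count of 5 higher genes was 3 with library sizes alone, limma-voom, the compared groups alone or the 3 libraries that stood apart left out, and 3 to 5 without 1 library. For shCHD1 B in PM, 3 higher genes became 5 with a 5 CPM floor in 4 libraries. For the difference between lines with shCHD1 A, 2 higher genes became 5 with DESeq2 size factors, 6 with DESeq2, 7 with library sizes, the 5 CPM filter or the 3 libraries left out, 4 with limma-voom and 8 with the replicate block, with 1 to 6 without 1 library. The 1 lower gene became 2 without a filter, with the compared groups alone or with the block, and 1 to 2 without 1 library. For shCHD1 B the count of 0 lower genes became 2 with the block (SHMT1 and TK1), and 0 to 1 without 1 library. There, 2 of the 30 genes had an unadjusted p under 0.05 with edgeR. For hairpin B against A in PE, 1 higher gene became 2 with DESeq2 or the block, 3 with the 5 CPM filter and 4 with library sizes, and 1 to 3 without 1 library. The 6 lower genes there became 3 with library sizes, and 1 to 7 without 1 library. The block added 25 calls and lost 0. In 22 of 24 libraries the mean correlation was highest with the same replicate number, a hint from the data and not from the design, and in PE shCHD1 B against shGFP and in PM against PE 3 of 4 pairs passed 0.1, so these were not read as paired. The causes of these shifts were not tested. Reads shared between genes on opposite strands or with pseudogenes limit single values, and hairpin responses are measured at 1 time and dose.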
